A study of Mus musculus with 6 samples.

Results

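Receptors of the G protein-coupled class that let fat cells read hormones and circulating metabolites were followed in stomatin-depleted 3T3-L1 cells. The set held 9 genes, namely the beta-adrenergic receptor genes Adrb1 and Adrb3, the thyrotropin receptor gene Tshr, the neuropeptide Y receptor gene Npy1r, the hydroxycarboxylic acid receptor genes Hcar1 and Hcar2, the succinate receptor gene Sucnr1, and the free fatty acid receptor genes Ffar2 and Ffar4. Members were found as array rows that the annotation assigns to a single listed gene, which gave 7 of the 9 among 19250 protein-coding genes. Adrb1 and Adrb3 had no row named for them and were not analysed here. The row of Hcar1 carried its older symbol as well and was counted as 1 gene. Each of the 7 had 1 named row, so no choice between rows was needed. Tshr, Hcar1 and Npy1r were picked because their changes between these same groups were large, and their values are given as a description with no test. The other 4 measured members (Hcar2, Sucnr1, Ffar2 and Ffar4) were picked by receptor class, with earlier results of these data known.

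These receptors span the cell membrane and pass a signal to a G protein when a ligand binds. In fat cells, receptors that couple to the stimulatory G protein raise cyclic AMP and start the breakdown of stored triglyceride, and those that couple to inhibitory G proteins lower cyclic AMP and restrain it. Tshr is of the first kind. Hcar1, Hcar2 and Npy1r are of the second kind. Ffar2, Ffar4 and Sucnr1 respond to fatty acids or to an intermediate of the TCA cycle, and they are not sorted into these kinds here.

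The arrays covered shSTOM-1 cells, which are 3T3-L1 cells carrying a lentivirus with a short hairpin RNA against Stom, and control cells, which carry the empty vector. Cells of both groups were selected with 3 µg/ml puromycin, induced with isobutylmethylxanthine, dexamethasone and insulin, and harvested at day 7 of adipogenesis, with 3 arrays per group. 3T3-L1 is a mouse fibroblast line that takes on features of adipocytes after this induction. Only 1 hairpin was arrayed, and the arrays are numbered as clones. Whether the clones were separate cultures is not stated, and the tests see only array-to-array variation, part or all of which may be technical. All values are log2 array signals that the authors normalized, and the arrays had medians between 5.06 and 5.11.

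Stom was lower in shSTOM-1 cells, at 10.57, 10.60 and 10.67, than in control cells, at 13.17, 13.03 and 13.26 (difference of means -2.54, standard error 0.07, adjusted p = 1.12e-08 from limma). Of 17 white adipocyte markers, 15 fell and 0 rose past the threshold, an adjusted p of 0.05, and their mean log2 signal was 10.22 to 10.66 in shSTOM-1 arrays and 13.85 to 13.92 in control arrays. Lep and Acvr1c, the 2 markers that did not pass, differed by -0.07 and -0.08 (adjusted p = 0.641 and 0.202). Of 11 preadipocyte and fibroblast markers, 9 were higher and 0 lower, with a mean of 12.90 to 12.96 in shSTOM-1 arrays and 11.28 to 11.41 in control arrays. The mean over 8 macrophage markers was 5.00 to 5.03 and 4.91 to 5.04 in these groups, and that over 7 endothelial markers 4.45 to 4.51 and 4.45 to 4.49. Past the threshold, 1 macrophage marker was higher and 1 lower, and 1 endothelial marker was lower. That is 25% and 14.3% of these lists, against 44.8% of all coding genes. These adipocyte and fibroblast markers moved together with the receptor changes below, and their part in those changes was not tested. In these bulk samples, fewer fat cells and less receptor RNA per fat cell cannot be told apart.

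The 4 members that were not chosen for their change all fell in shSTOM-1 cells. Their log2 fold changes, shSTOM-1 minus control, were -4.29 for Hcar2, -2.91 for Ffar4, -1.86 for Sucnr1 and -1.49 for Ffar2. The limma test called all 4 lower at the same threshold and 0 higher, against a background of 22.7% of all coding genes that passed as lower, 22.1% as higher and 44.8% in either direction. Tshr and Hcar1 were lower in shSTOM-1 cells as well, and Npy1r was higher. The groups did not overlap in these 4 members, which held for 51.9% of all coding genes. They did not overlap in Tshr, Hcar1 and Npy1r either, which follows from how these 3 were chosen.

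**Figure D1:**
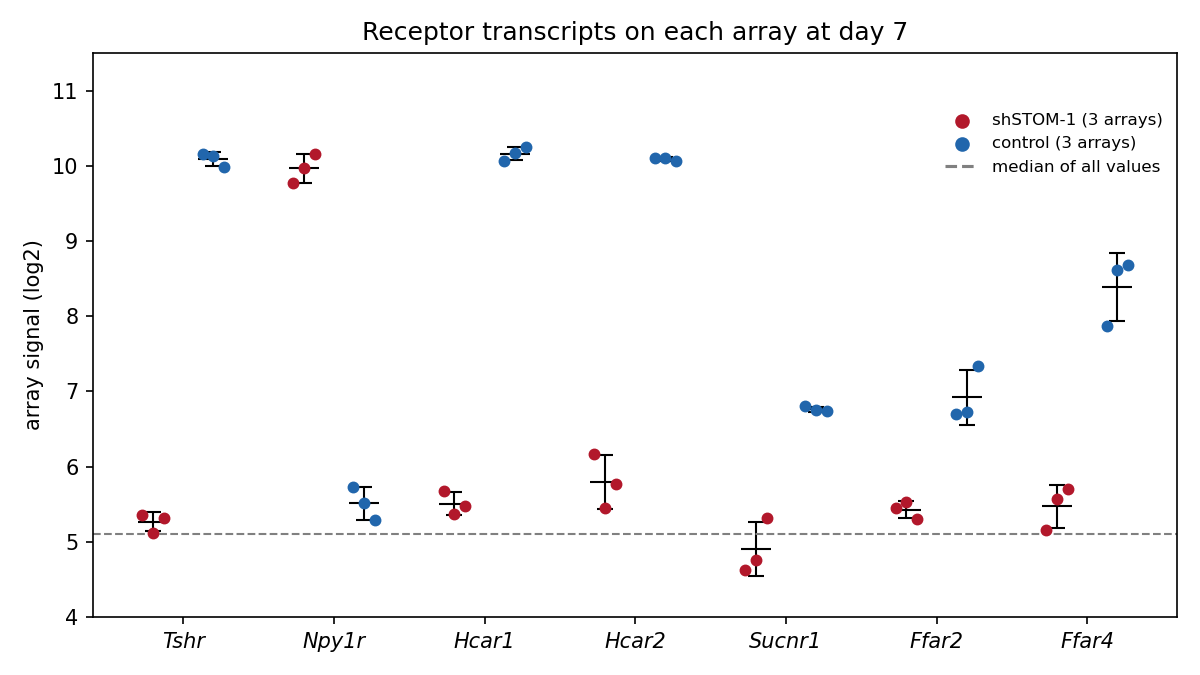
Log2 array signal (vertical axis) of the 7 measured receptor genes on each of the 3 shSTOM-1 arrays (red) and 3 control arrays (blue), with the mean and SD of each group as black bars and the median of all values (5.1) as a dashed line. Npy1r is higher in shSTOM-1 cells, the other 6 are lower, and the groups are apart in every gene.

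The DNA before an annotated start is shown for 3 of these genes, side by side. They are a member that was lower (Hcar1), the member that was higher (Npy1r) and the member with sequence matches (Ffar2). Reference promoters from RefSeq, on the GRCm38.p6 build, were at hand for 5 of the 7 measured members (Hcar1, Npy1r, Sucnr1, Ffar2 and Ffar4), and Tshr and Hcar2 had no entry. Each run below holds the 250 bases before an annotated transcription start, written 5′ to 3′, with capitals where a searched motif matched. Ffar2 has 4 annotated starts, and the window of the first is shown. The Npy1r window lies inside the annotated gene, which begins at position 66697149, so the bases before that position were not searched.
Hcar1 chr5:123880004-123880253 (minus strand): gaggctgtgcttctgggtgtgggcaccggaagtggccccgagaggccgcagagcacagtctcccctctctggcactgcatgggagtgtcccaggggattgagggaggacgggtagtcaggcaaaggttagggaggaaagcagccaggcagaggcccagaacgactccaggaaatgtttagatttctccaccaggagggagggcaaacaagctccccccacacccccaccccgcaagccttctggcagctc
Npy1r chr8:66697172-66697421 (plus strand): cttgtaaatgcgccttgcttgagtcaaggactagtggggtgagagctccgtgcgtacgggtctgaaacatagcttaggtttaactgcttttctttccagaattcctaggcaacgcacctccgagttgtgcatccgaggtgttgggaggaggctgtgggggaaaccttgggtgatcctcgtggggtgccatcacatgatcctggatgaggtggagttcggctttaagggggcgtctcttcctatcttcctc
Ffar2 chr7:30823776-30824025 (minus strand): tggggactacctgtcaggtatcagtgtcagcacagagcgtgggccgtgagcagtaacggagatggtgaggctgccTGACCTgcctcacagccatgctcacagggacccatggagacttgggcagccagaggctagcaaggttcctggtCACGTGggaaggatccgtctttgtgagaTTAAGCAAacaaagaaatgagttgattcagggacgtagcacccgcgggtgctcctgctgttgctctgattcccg

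The motifs were AGGTCA, the hexamer bound by nuclear receptors such as PPARγ, the repeat of that hexamer in the same orientation with any 1 base between the copies, TTGCNNAA, a form of the C/EBP site, TGACG, the core of the cyclic AMP response element, and CACGTG, the E-box. Both strands were searched, and the repeat contains the hexamer, so those matches overlap. In the Ffar2 window shown, AGGTCA matched on the reverse strand at position 76, CACGTG at position 149 and TTGCNNAA on the reverse strand at position 177, counted from the 5′ end. Over the 4 windows of Ffar2, of which the last pair overlap, AGGTCA was in 3, TTGCNNAA in 3 and CACGTG in 1. The AGGTCA match of the last pair is 1 site that lies in both windows. Ffar2 was searched in 4 windows, and Hcar1, Npy1r, Sucnr1 and Ffar4 in 1 each. The windows of Hcar1, Npy1r, Sucnr1 and Ffar4 held no match to any of the 5 motifs. Of 32851 reference windows of this length, 14% held AGGTCA, 0.0335% the repeat, 9.56% TTGCNNAA, 17.8% TGACG and 6.02% CACGTG. The share of G and C bases was 62.4% for Hcar1, 61.2% for Ffar4, 56.8% for the first window of Ffar2, 53.6% for Npy1r and 38% for Sucnr1, with a median of 52.4% over all windows. A match in these windows is a description of the letters and not of a bound site.

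Among the hormone receptors, Tshr, the receptor of thyrotropin, was read at 5.36, 5.12 and 5.32 in the 3 shSTOM-1 arrays and at 10.16, 10.13 and 9.99 in the 3 control arrays. The nearest values of the groups were 4.63 apart on the log2 scale. The group means were 5.27 ± 0.13 and 10.09 ± 0.09 (SD, n = 3), which is -4.83 in log2 units, or 28.4-fold. Its relative Fshr, the receptor of follicle-stimulating hormone, differed between groups by -0.10 (95% interval -0.20 to 0.01, adjusted p = 0.142 from limma). Cep128 and Gtf2a1, the coding genes on either side of Tshr, moved by 0.22 and -0.40 (adjusted p = 0.00514 and 0.000245), both past the threshold. None of the 4 measured genes for the subunits of thyrotropin and of the related hormone thyrostimulin (Cga, Tshb, Gpha2 and Gphb5) passed the test, with log2 fold changes of -0.05 to 0.10.

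Npy1r, which binds neuropeptide Y and peptide YY, was the 1 member higher in shSTOM-1 cells. Its signal was 9.77, 9.97 and 10.16 in shSTOM-1 arrays and 5.73, 5.52 and 5.29 in control arrays, with 4.04 between the nearest values. The means were 9.97 ± 0.20 and 5.51 ± 0.22 (SD, n = 3), which is 4.45 in log2 units, or 21.9-fold. The other 4 receptor genes of this family, Npy2r, Npy4r, Npy5r and Npy6r, had log2 fold changes of 0.07, 0.10, -0.01 and 0.21, and none passed the test. Npy5r is the coding gene next to Npy1r in the RefSeq order of the chromosome, and its adjusted p was 0.967 from limma (95% interval of the log2 fold change -0.20 to 0.19). Naf1, on the other side, rose by 0.70 (adjusted p = 0.000344). The ligand genes Npy, Pyy and Ppy did not pass either, with log2 fold changes of 0.08, 0.01 and -0.05. Dpp4, a peptidase that trims neuropeptide Y and is also among the fibroblast markers, had a log2 fold change of 0.02, while the related peptidase gene Fap rose by 0.52 (adjusted p = 0.000138).

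Hcar1 and Hcar2 are adjacent on the chromosome, and both were lower. Hcar1, the receptor of lactate, was at 5.67, 5.37 and 5.47 in shSTOM-1 arrays and at 10.07, 10.17 and 10.25 in control arrays. The means were 5.50 ± 0.15 and 10.16 ± 0.09 (SD, n = 3), which is -4.66 in log2 units, or 25.3-fold. Hcar2, the receptor of the ketone body beta-hydroxybutyrate and of nicotinic acid, was at 6.17, 5.45 and 5.77 in shSTOM-1 arrays and at 10.11, 10.10 and 10.06 in control arrays. Its shSTOM-1 values spread by an SD of 0.36 and its control values by 0.03, and the groups were 3.89 apart at their nearest. The log2 fold change of Hcar2 was -4.29 (standard error 0.15, 95% interval -4.64 to -3.95, adjusted p = 4.63e-08 from limma). Kntc1 and Denr, the coding genes on either side of the pair, fell by 0.47 and 0.52 (adjusted p = 8.65e-05 and 2.7e-05).

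Sucnr1, the receptor of succinate, was at 4.63, 4.76 and 5.31 in shSTOM-1 arrays and at 6.80, 6.75 and 6.74 in control arrays. The control arrays were within 0.06 of each other, and the third shSTOM-1 array stood 0.55 above the next. The log2 fold change was -1.86 (standard error 0.15, 95% interval -2.21 to -1.52, adjusted p = 9.04e-06 from limma), or 3.64-fold. Oxgr1, the receptor of the related metabolite 2-oxoglutarate, was at a mean of 3.65 in shSTOM-1 cells and 3.62 in control cells (adjusted p = 0.722). Of the coding genes beside Sucnr1, Mbnl1 fell by 0.34 (adjusted p = 0.00127) and Aadac differed by -0.07 (adjusted p = 0.29).

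Both fatty acid receptors of the set fell. Ffar4, which binds long-chain fatty acids, was at 5.15, 5.57 and 5.70 in shSTOM-1 arrays and at 7.87, 8.61 and 8.68 in control arrays, with control clone 1 below the other control arrays. Its log2 fold change was -2.91 (standard error 0.22, 95% interval -3.41 to -2.41, adjusted p = 5.21e-06 from limma), or 7.53-fold. Ffar2, which binds acetate and other short-chain fatty acids, was at 5.45, 5.53 and 5.30 in shSTOM-1 arrays and at 6.70, 6.72 and 7.34 in control arrays, with control clone 3 above the others. Its log2 fold change was -1.49 (standard error 0.16, 95% interval -1.86 to -1.13, adjusted p = 5.38e-05), or 2.82-fold. Of the 2 remaining genes of the family, Ffar1 fell by 0.41 (adjusted p = 0.00358) and Ffar3, the coding gene next to Ffar2, was at a mean of 4.82 in shSTOM-1 cells and 4.75 in control cells (adjusted p = 0.381). Beside Ffar4, Cep55 fell by 0.40 (adjusted p = 0.000299) and Rbp4, the retinol carrier gene, differed by -0.01 (adjusted p = 0.916).

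**Figure D2:**
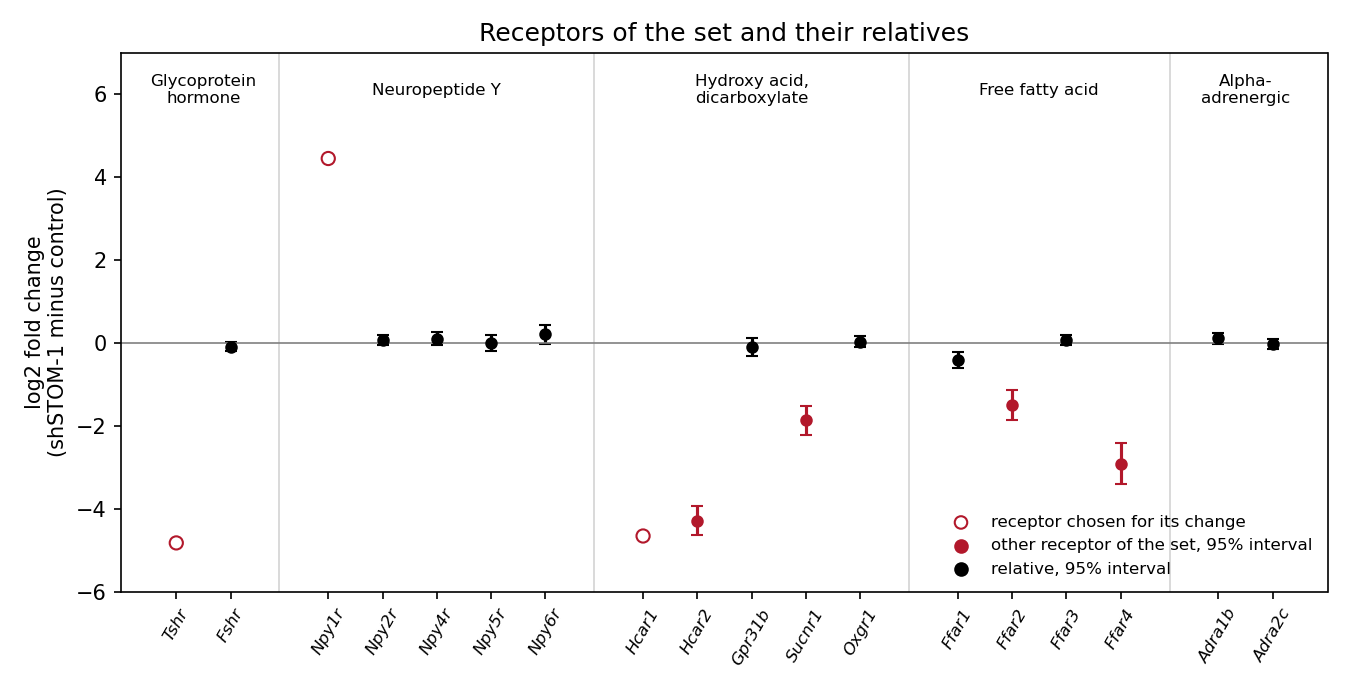
Log2 fold change (vertical axis, shSTOM-1 minus control) of the 7 receptor genes (red) and of their measured relatives (black) by family, with 95% intervals from limma where a test was made and open circles for the 3 genes chosen for their change. Of the 11 relatives, Ffar1 passed an adjusted p of 0.05, as did 44.8% of all coding genes. The other 10 lie between -0.10 and 0.21.

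Of 17 relatives listed for these receptors, 11 had a named row. Ffar1 was the 1 relative past the threshold, which 44.8% of all coding genes passed. The alpha-adrenergic receptor genes Adra1b and Adra2c, the 2 measured adrenergic receptors, differed by 0.11 and -0.03 in log2 units (limma adjusted p = 0.196 and 0.706). For all relatives other than Ffar1 both group means were below the median over all values, and the table holds no detection calls, so these genes are not shown to be above background. The shSTOM-1 mean of Ffar1, at 5.12, was only 0.02 above that median.

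The low group of most members was also close to that median. It lay 0.17 above it for Tshr, 0.33 for Ffar2, 0.37 for Ffar4, 0.40 for Hcar1, 0.41 for Npy1r and 0.70 for Hcar2, and 0.20 below it for Sucnr1. Without detection calls, these fold changes are approximate, and no order between the genes is read from them.

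The order of the shSTOM-1 arrays varied among the receptor genes. Clone 2 was the lowest of the 3 shSTOM-1 arrays in 15 of 17 white adipocyte markers and in 3 of the 6 lower members, Tshr, Hcar1 and Hcar2. In Sucnr1 and Ffar4 clone 1 was the lowest, and in Ffar2 clone 3. The deviations of the 6 lower members from their group mean in clone 2 ran from -0.35 for Hcar2 to 0.10 for Ffar2, beside -0.26 for the mean of the markers. Npy1r deviated by 0.00 in clone 2.

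**Figure D3:**
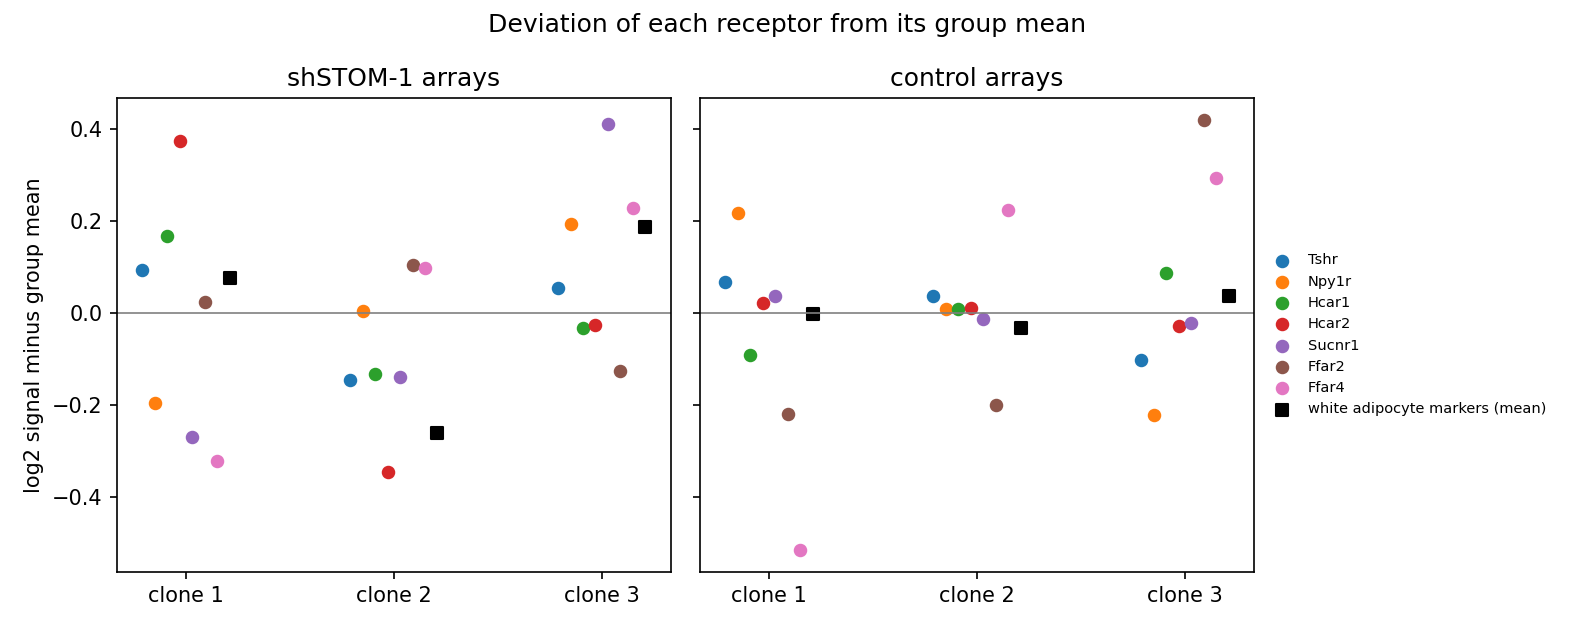
Log2 signal minus the mean of its group (vertical axis) on each array, for the 7 receptor genes (circles) and the mean of 17 white adipocyte markers (squares), with shSTOM-1 arrays on the left and control arrays on the right. In shSTOM-1 clone 2, the markers lie at -0.26 and Hcar2 at -0.35, while Ffar2 and Ffar4 lie at 0.10.

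For each member, the 2 coding genes with the most similar profile over the 6 arrays were found by the root mean square difference of log2 values, after each gene was centred on its own mean. Such a list mostly returns genes with the same fold change, and it says nothing of shared control. Fam110c was the nearest to both Tshr and Hcar1 (difference 0.117 and 0.116), followed by G0s2, an inhibitor of the lipase ATGL, for Tshr (0.134) and by Dbt, a subunit of the branched-chain keto acid dehydrogenase, for Hcar1 (0.117). The genes nearest to Hcar2 were Abhd15 (0.098) and Plin1 (0.112), which codes for the lipid droplet coat protein perilipin-1 and is 1 of the 17 white adipocyte markers. Ffar2 was nearest to Slc25a34 (0.102) and Osgin1 (0.119), Sucnr1 to Acyp2 (0.135) and Arhgap29 (0.158), and Ffar4 to Peg10 (0.228) and Vegfa (0.237). Npy1r was nearest to Atp1b1, a subunit of the sodium pump (0.140), and P4ha3, a collagen prolyl hydroxylase gene (0.165).

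Among 123 other receptor genes with known or proposed roles in fat cells, 19 rose, 11 fell and 93 did not pass, so that 24.4% passed against 44.8% of all coding genes. Their median log2 fold change was 0.00, as over all coding genes. In 35.8% of these receptors, and in 60.6% of all coding genes, a group mean lay above the median of all values. At 2-fold or more, 7 were higher and 4 were lower, 8.94% against 10.9% of all coding genes. The 4 lower ones were Mc5r and Mc2r, receptors of melanocortins, of which Mc2r binds corticotropin, Sctr, the secretin receptor, and Adgrf5, an adhesion receptor. Mc5r was at 7.17, 6.82 and 6.84 in shSTOM-1 arrays and 10.99, 10.37 and 10.56 in control arrays, 13-fold lower (adjusted p = 1.33e-07 from limma), and Mc2r was 7.33-fold lower (adjusted p = 1.25e-07). Mrap, the accessory protein that carries the Mc2r product to the cell surface, was at 9.10, 8.72 and 9.08 against 13.32, 13.41 and 13.44, 21.5-fold lower (adjusted p = 7.3e-09). The 7 higher ones included Ptgfr, the receptor of prostaglandin F2α, at 6.18-fold, Agtr2, an angiotensin II receptor, at 5.82-fold, Lpar4, a receptor of lysophosphatidic acid, at 5.80-fold, and Gprc5a at 5.50-fold (adjusted p between 1.22e-08 and 2.1e-06).

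Of 13 genes for G protein alpha subunits, through which such receptors act, 6 rose, 3 fell and none reached 2-fold. That is 69.2% past the threshold, against 44.8% of all coding genes. Gnas, the stimulatory subunit below Tshr, rose by 0.31 on the log2 scale (adjusted p = 0.000663 from limma). The inhibitory subunit genes Gnai1, Gnai2, Gnai3 and Gnao1 rose by 0.16, 0.64, 0.72 and 0.98 (adjusted p between 3.03e-07 and 0.022). Receptors such as Npy1r, Hcar1 and Hcar2 use this inhibitory class. Gna11 and Gnaq, of the class that Ffar4 uses, fell by 0.52 and 0.22 (adjusted p = 5.78e-05 and 0.00228). Gna14 and Gna15, of the same class, differed by -0.01 and -0.08 and did not pass (adjusted p = 0.928 and 0.354). Of 19 RGS genes, whose products shorten G protein signals, 6 rose and 2 fell (42.1%, against 44.8% of all coding genes). Rgs2 was 7.01-fold lower, at 10.11, 9.93 and 10.21 in shSTOM-1 arrays and 12.88, 12.91 and 12.89 in control arrays (adjusted p = 1.01e-08). Of 8 receptor kinase and arrestin genes, 3 rose and 2 fell (62.5%, against 44.8% of all coding genes). The receptor kinase gene Grk5 was 2.22-fold higher (adjusted p = 8.58e-07 from limma), while Grk6 was 1.43-fold lower (adjusted p = 5.73e-05). The arrestin gene Arrb1 was 1.56-fold lower (adjusted p = 2.24e-05), while Arrdc3 of the same list was 1.43-fold higher (adjusted p = 5.89e-05). Over all 60 partners, among them accessory proteins, subunits, RGS proteins, kinases and arrestins, 23 rose and 11 fell (56.7% against 44.8% of all coding genes), at a median log2 fold change of 0.03.

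Of 34 ligand and ligand supply genes, 17 fell, 3 rose and 14 did not pass, at a median log2 fold change of -0.13 (58.8% passed, against 44.8% of all coding genes). All 7 genes of succinate formation and use fell, with log2 fold changes of -2.06 to -1.02, among them Sdhd, a subunit of succinate dehydrogenase, and Suclg1, a subunit of succinyl-CoA ligase. Of 8 genes of lactate formation and transport 3 fell (37.5%, against 44.8% of all coding genes). Ldhb was 6.16-fold lower, Ldha 2.93-fold lower and the lactate transporter gene Slc16a1 1.29-fold lower (adjusted p between 1.51e-08 and 0.00126 from limma). Of the 4 measured ketone body genes, Oxct1, which codes for the enzyme that activates ketone bodies for oxidation, was 3.45-fold lower, Acat1 was 2.17-fold lower and Bdh2 was 2.65-fold higher (adjusted p between 2.43e-08 and 2.14e-06), and Bdh1 had a log2 fold change of -0.06. Of 6 genes of acetate formation and use 5 fell and 1 rose, with the acetyl-CoA synthetase genes Acss3 and Acss2 at 2.31-fold and 2-fold lower (adjusted p = 1.08e-06 and 3.23e-06). These are transcript levels, and no metabolite or receptor protein was measured on the arrays.

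**Figure D4:**
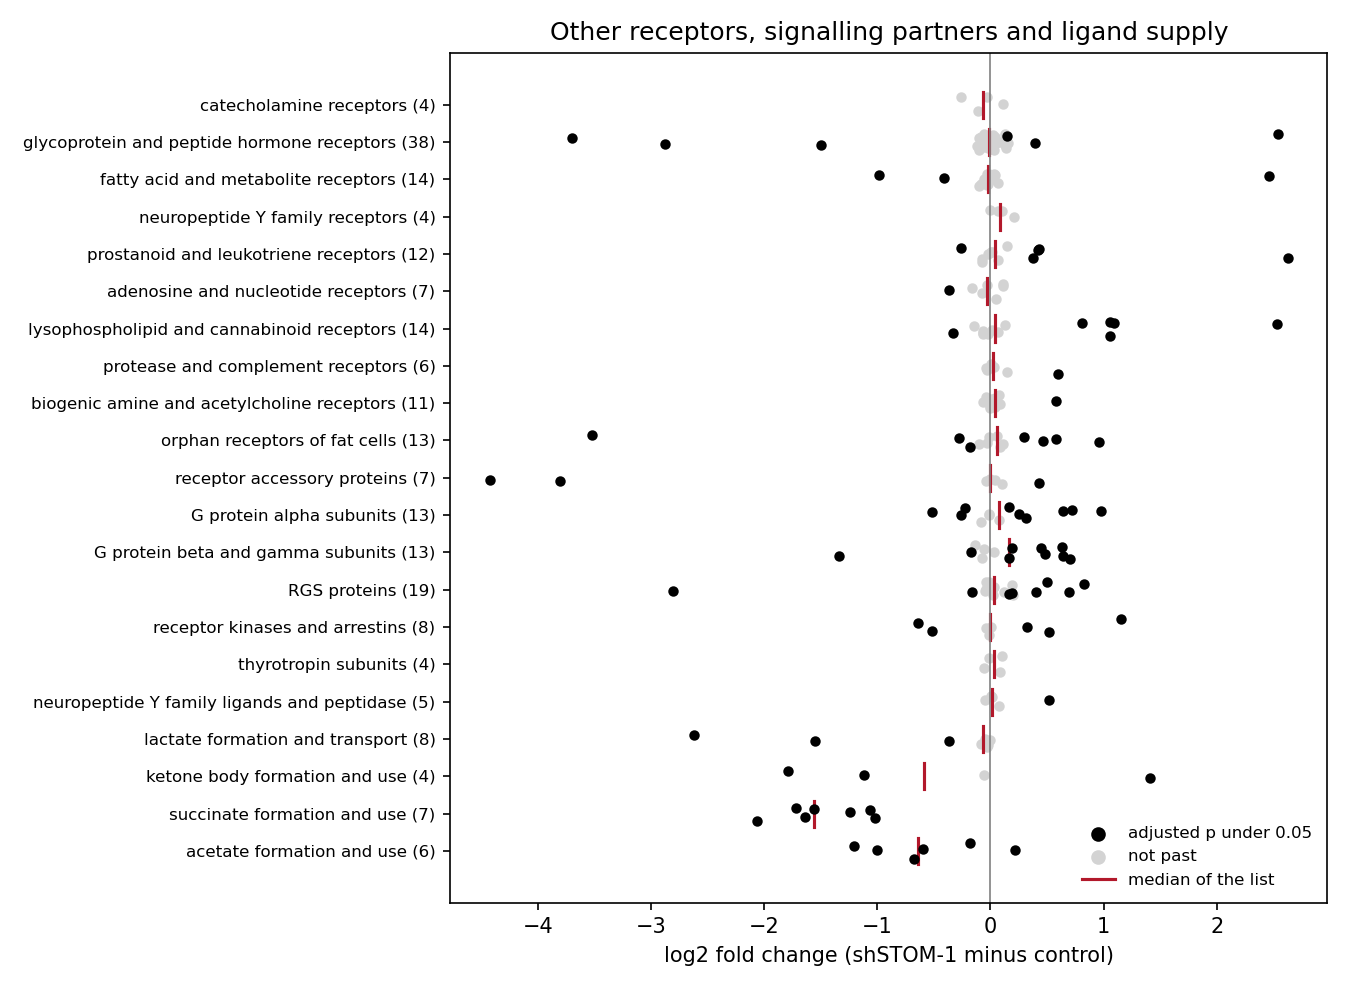
Log2 fold change (horizontal axis, shSTOM-1 minus control) of each measured gene in the lists of other receptors, signalling partners and ligand supply, with the number of genes in brackets, genes past an adjusted p of 0.05 from limma in black, the others in grey and the median of each list as a red line. All 7 genes of succinate formation and use lie at -1.02 or lower, and Mrap and Reep6 among the accessory proteins lie at -4.42 and -3.81.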

How the data were processed

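Total RNA from day 7 3T3-L1 cells was read on 6 Affymetrix MTA-1_0 arrays. The log2 signals of 65956 array rows were deposited by the authors, who had processed the scans with the Transcriptome Analysis Console. For the background correction, the normalization method and the genome build, the entry is: not given in the sources used here. No detection calls were used.

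Rows took gene names from the platform annotation, with symbols and gene types updated from RefSeq genes of GRCm38.p6. Of these rows, 31292 had 1 gene, 1522 had several and 33142 were not named. Where a gene had several rows, the one with the highest mean was used. The members, lists and rules were chosen with earlier results of these data known. Named genes were the members, their relatives, up to 4 genes with the largest change past the threshold in each list, and the 2 most similar profiles of each member. Lep, Acvr1c, the neighbouring genes, and the values of genes that did not pass were named outside that rule, after their values were seen, as were Gnas, Gnai1, Gnaq and Bdh1.

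Groups were compared over 19250 coding genes by limma 3.58.1 (lmFit, then eBayes, with a prior of 4.26 degrees of freedom) under R 4.3.3. The p-values were adjusted by Benjamini-Hochberg over all of these genes. The procedure was tested on simulated data. Only 3 arrays per group limit the precision. Python 3.11.15 and matplotlib 3.10.9 were used for tables and plots, and scipy 1.17.1 for the exact test. The alternatives tried are given in the closing section. The planned comparison of Adrb3 with Adrb1 was not run, since neither was analysed here. The planned comparison of Ffar4 with Ffar2 within an array (two-sided exact permutation test, p = 0.1, the smallest possible here) sets different probes against each other, both near the median of all values in shSTOM-1 cells, and nothing was read from it.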

Additional observations from a re-analysis of the deposited data

How the results depend on the processing

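The alternatives were quantile normalization, centred array medians, dim genes left out, the mean of the rows of a gene, an intensity trend with robust settings, no moderation, a replicate block for clone number, testing of noncoding genes too, each array left out in turn and an added 2-fold limit. The 4 members tested (Hcar2, Sucnr1, Ffar2 and Ffar4) kept their direction and their call under each of these. The 2-fold limit could not change these calls, since all 4 changes were already larger. Leaving out dim genes could not remove Sucnr1, whose control mean of 6.76 was above the median of all values. Over the settings, the log2 fold change was -4.48 to -4.12 for Hcar2 (highest adjusted p 0.000426 from limma fits), -3.17 to -2.75 for Ffar4 (0.00321), -2.07 to -1.73 for Sucnr1 (0.00384) and -1.60 to -1.28 for Ffar2 (0.00879). That of the 3 described without a test was -4.88 to -4.75 for Tshr, -4.74 to -4.59 for Hcar1 and 4.34 to 4.56 for Npy1r. With the 2-fold limit, 7 of the other receptors were higher and 4 lower (8.94%). The signalling partners had 1 higher and 4 lower (8.33%), and the ligand supply genes 1 higher and 13 lower (41.2%). Of all coding genes, 10.9% passed this limit. The values showed no pairing of the arrays by clone number, which cannot tell whether clones of the same number were handled together. Deviations of arrays with the same number correlated at -0.04, 0.03 and -0.12, and no array correlated best with its own number. With the number as a replicate block, 8232 coding genes passed in place of 8633, the counts of members stayed at 4 lower and 0 higher, and the log2 fold change of Npy6r passed at 0.21 (adjusted p = 0.031). With 3 arrays per group and no detection calls, small changes and genes near the median of all values are not resolved.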
